A study of Mus musculus with 18 samples.

Results

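The levels of 9 genes of G-protein signaling, of 37991 genes in the count tables, were followed through CD4+ T cells of naive and tolerized Tg4 mice. They are 5 regulators of G-protein signaling (*Rgs1*, *Rgs2*, *Rgs3*, *Rgs10* and *Rgs16*), the receptors *Gpr18* and *Gpr183*, and the prostaglandin E2 receptors *Ptger4* and *Ptger2*. The 9 genes were taken by name, though with earlier results of these data known, and all 9 passed the filter on low counts. RNA-seq had been performed on 18 libraries, 3 in each of 6 groups. Tg4 mice carry a transgenic TCR for an N-terminal peptide of myelin basic protein, and mice of both sexes aged 6 to 12 weeks were used. Tolerized mice had received 7 subcutaneous doses of the high-affinity 4Y peptide, which rose to a maximum that was then kept. Naive mice had received PBS on the same schedule. Cells at rest (N0 and T0) came from mice whose last injection was PBS, and cells after Ag (NAg and TAg) from mice harvested 2 h after 80 μg of 4Y peptide. For the PI groups (NPI and TPI), resting cells were treated in culture for 2 h with PMA, an activator of protein kinase C, and the calcium ionophore A23187, which together bypass the TCR. Ag was therefore given in the animal and PI in the dish. No group was cultured without PI. A response to PI is thus the change from N0 or T0, in which PI and the time in culture cannot be told apart. CD4+ T cells were purified from spleen with a magnetic enrichment kit, and RNA of other cells can remain.

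G-protein-coupled receptors pass signals from chemokines, lipids and other ligands to heterotrimeric G proteins, whose α subunit is switched on when it binds GTP. RGS proteins speed up the hydrolysis of this GTP and so shorten the signal, and in lymphocytes they are known for tuning the response to chemoattractants. *Gpr183* encodes EBI2, the receptor for the oxysterol 7α,25-dihydroxycholesterol, which positions lymphocytes within spleen and lymph node. *Gpr18* encodes a receptor that is abundant in lymphocytes and whose ligand is debated. *Ptger2* and *Ptger4* encode EP2 and EP4, the prostaglandin E2 receptors that couple to the stimulatory G protein and raise cyclic AMP, a brake on T cell activation.

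The members lie on 5 chromosomes of the NCBIM37 build. *Rgs2* (chr1:145846468-145851291, minus strand) and *Rgs1* (chr1:146091102-146096372, minus strand) are neighbors separated by 239.81 kb, and *Rgs16* (chr1:155587479-155592598, plus strand) is further along the same chromosome. *Gpr18* (chr14:122310657-122314996, minus strand) and *Gpr183* (chr14:122351553-122364415, minus strand) are 36.556 kb apart, both inside the span of *Ubac2* on the opposite strand but sharing no exon sequence with it. *Ptger2* is at chr14:45607870-45623495 (plus strand), *Ptger4* at chr15:5156661-5194187 (minus strand), *Rgs3* at chr4:62220881-62364052 (plus strand) and *Rgs10* at chr7:135517135-135562272 (minus strand). *Ptger4* shares 1015 bp of its exons (15.3%) with the pseudogene *Gm15937* and 82 bp with *Ttc33*, both on the opposite strand. Whether the counting used strand is not stated, so the level of *Ptger4* is uncertain to that extent.

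The promoters of 4 members are shown, namely the pairs *Rgs16* and *Rgs2* and *Ptger2* and *Ptger4*, whose ratios are given below. Other members also differed between the cell states. Whether the promoters have a part in any difference was not tested. Each line gives the 250 bases upstream of the RefSeq start site on the strand of the gene (GRCm38.p6, not the build of the counts), and capitals mark matches to the motifs searched.
Rgs16: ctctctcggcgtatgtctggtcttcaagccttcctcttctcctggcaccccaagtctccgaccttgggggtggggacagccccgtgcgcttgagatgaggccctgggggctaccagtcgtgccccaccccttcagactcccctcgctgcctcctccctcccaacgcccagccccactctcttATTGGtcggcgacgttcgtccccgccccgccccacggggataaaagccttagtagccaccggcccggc
Ptger2: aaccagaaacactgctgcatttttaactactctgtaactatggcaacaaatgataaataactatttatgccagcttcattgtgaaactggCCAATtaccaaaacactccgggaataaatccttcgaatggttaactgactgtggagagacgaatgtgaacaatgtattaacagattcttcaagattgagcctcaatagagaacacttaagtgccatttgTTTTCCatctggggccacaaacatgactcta
Ptger4: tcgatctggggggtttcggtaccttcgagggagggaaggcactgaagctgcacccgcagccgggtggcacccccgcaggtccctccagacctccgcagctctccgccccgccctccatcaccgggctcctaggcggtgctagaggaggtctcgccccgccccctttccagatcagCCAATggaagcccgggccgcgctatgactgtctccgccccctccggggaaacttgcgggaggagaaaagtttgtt
Rgs2: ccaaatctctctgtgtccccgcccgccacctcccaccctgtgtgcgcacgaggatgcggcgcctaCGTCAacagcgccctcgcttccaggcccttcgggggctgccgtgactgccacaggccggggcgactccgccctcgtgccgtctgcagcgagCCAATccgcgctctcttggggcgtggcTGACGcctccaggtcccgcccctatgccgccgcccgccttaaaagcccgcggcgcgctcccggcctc
These stretches are chr1:153740103-153740352 (plus strand), chr14:44987861-44988110 (plus strand), chr15:5244188-5244437 (minus strand) and chr1:144004150-144004399 (minus strand) of GRCm38.p6. A RefSeq promoter was matched for 8 of the 9 members, *Rgs1* being the one without. The letters searched on both strands were TGANTCA (AP-1), TGACGTCA (the cyclic AMP response element), its core TGACG (contained in the full element), GGAAAA (an NFAT core) and CCAAT. The CCAAT box was found in 4 of the 8 members, namely those printed, and in 33.8% of 32851 promoters of the same length. The core TGACG was found in *Rgs2* alone among them, at 2 places, and in 17.8% of all promoters. GGAAAA was matched in *Ptger2*, on the strand opposite to the gene, and in 20.4% of all promoters. TGANTCA and TGACGTCA, present in 6.75% and 1.55% of all promoters, were in none of the members' windows. The matched members that are not printed, *Rgs3*, *Rgs10*, *Gpr18* and *Gpr183*, held none of the motifs searched. The *Ptger2* window is AT-rich, with a GC content of 38.0%, against 66.4% for *Rgs16*, 66.8% for *Ptger4* and 72.4% for *Rgs2*.

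Total counts ranged from 10758571 to 24119489 per library (median 12268935.5), and a normalized count is a count scaled to a common library size. Of 37991 genes, 17240 reached a mean normalized count of 3 in at least 1 group and were tested with edgeR. An adjusted p is a Benjamini-Hochberg value over these genes, and a gene passed when it was under 0.05. The labels number 3 replicates a group. The p-values set a difference against the spread between replicates, which was estimated over all 6 groups and moderated across genes. All 6 T cell markers were detected in every group, but their summed level was 3412 to 3687 CPM in N0 and 1468 to 1685 CPM in NAg, and 3361 to 3567 CPM in T0 and 1851 to 1984 CPM in TAg. With Ag, 6 of the 6 were lower in naive cells (median log2 fold change −1.09) and 5 in tolerized cells (−0.61), and their Ag response was higher in tolerized cells for 5 and lower for 1 (median difference 0.76). In TAg against NAg, 4 of these markers were higher and 1 lower (median log2 fold change 0.52). The 10 neutrophil markers differed with the cell state, their summed level being 6.96 to 18.4 CPM in N0 and 203 to 345 CPM in T0, 9.72 to 26.8 in NAg and 183 to 329 in TAg, and 4.07 to 10.6 in NPI and 23.5 to 42.4 in TPI. Of 7 macrophage markers, 6 were lower in TAg than NAg (median log2 fold change −3.28), their sum being 20.5 to 26.7 CPM in TAg and 21.2 to 123 CPM in NAg, and 6 were lower with PI in naive cells (−2.20). Reads of Y-linked genes exceeded 1000 in all NPI and TPI libraries, in T0 replicates 1 and 2 and in TAg replicate 3, but reached at most 15 in N0 and NAg. Hence sex cannot be told apart from PI between NPI and N0. Sex was also unbalanced between T0 and N0, between TAg and NAg, between TAg and T0 and between TPI and T0, and so in the differences in response. The part of these differences in the results was not tested beyond the values given beside them. In bulk RNA, fewer cells of a type and less RNA per cell cannot be told apart.

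**Figure D1:**
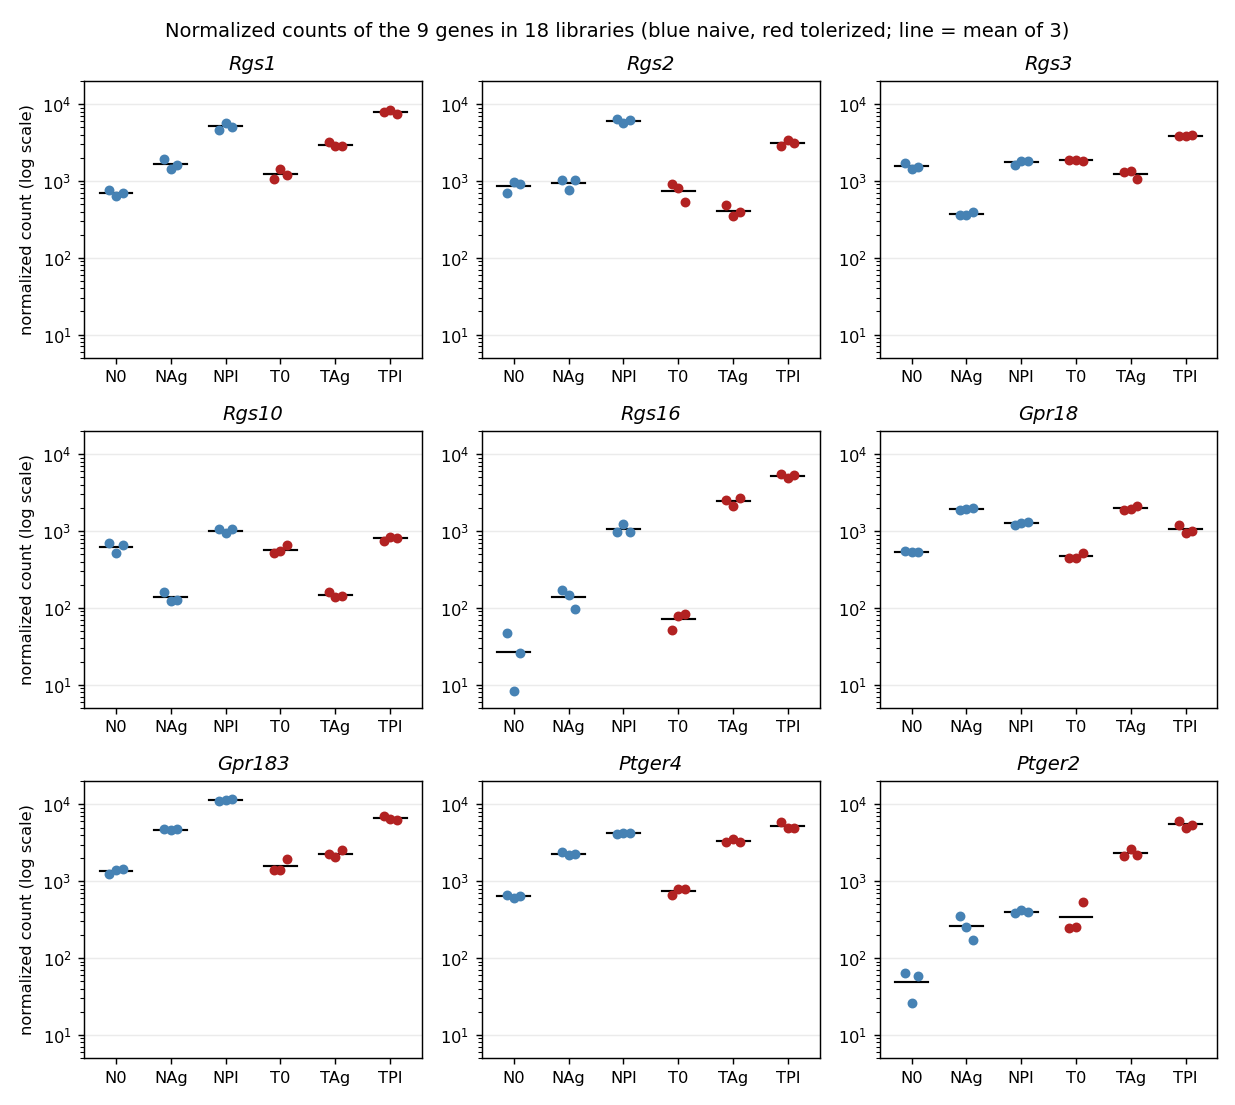
Normalized counts on a log axis for the 9 genes in the 6 groups, with 1 point per library and a line at the mean of 3. *Rgs16* and *Ptger2* stand higher in TAg and TPI than in any naive library, while *Rgs2* and *Gpr183* stand lower in TAg than in NAg and lower in TPI than in NPI.

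*Rgs16* had the widest range of the 9 genes. Its protein acts on inhibitory and Gq-type α subunits. At rest it was low, with normalized counts of 46.6, 8.35 and 25.8 in N0 and 51.3, 79.5 and 83.4 in T0. After Ag it had 173, 146 and 95.7 in NAg and 2569, 2126 and 2709.9 in TAg, so that the lowest tolerized library was more than 10 times the highest naive one. After PI the values were 964, 1224 and 975 in NPI and 5546, 4864 and 5317 in TPI, again without overlap. The order of the group means was TPI, TAg, NPI, NAg, T0 and N0, and no pair of neighbors in this order overlapped. On the log2 scale, naive cells responded to Ag by 2.28 (standard error 0.39, adjusted p = 0.000125) and tolerized cells by 5.09 (standard error 0.28, adjusted p = 9.96e-10). The difference between these responses was 2.81 (standard error 0.54, adjusted p = 0.00194). Without N0 replicate 1 the naive response to Ag was 2.93, that to PI 5.87 and the difference in Ag response 2.16, and all of these still passed. With PI both cell states responded strongly, by 5.22 in naive and 6.18 in tolerized cells. The difference in PI response did not pass (0.95, standard error 0.49, adjusted p = 0.213), although it passed without N0 replicate 2, at 1.37. Over all left-out libraries this difference ranged from 0.30 to 1.37. Relative to naive cells, *Rgs16* was higher in tolerized cells after Ag by 4.18 (standard error 0.26, adjusted p = 4.86e-08) and after PI by 2.32 (standard error 0.22, adjusted p = 1.99e-06). At rest the gap was 1.37 (standard error 0.41, adjusted p = 0.0307). This gap at rest did not pass when any of N0 replicates 2 or 3 or T0 replicates 2 or 3 was left out, and its value ranged from 0.95 (without N0 replicate 2) to 2.02 (without N0 replicate 1) over all left-out libraries. N0 replicate 2 had only 8 reads.

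*Rgs2*, whose product prefers Gq, moved the other way. Its normalized counts were 700.3, 981 and 908 in N0 and 903, 802 and 533 in T0, which overlapped, and the gap at rest did not pass (-0.23, standard error 0.19, adjusted p = 0.444). Ag left it at 1025, 773 and 1036 in NAg but at 488, 347 and 391 in TAg, below every other library of the series. The response of tolerized cells to Ag was -0.89 (standard error 0.20, adjusted p = 0.00129), while that of naive cells was 0.08 (standard error 0.19, adjusted p = 0.745), and these responses differed by -0.97 (standard error 0.27, adjusted p = 0.0206). This difference was no longer significant without T0 replicate 1 or TAg replicate 2. PI raised *Rgs2* in both cell states, to 6448, 5662 and 6222 in NPI and 2869, 3459.5 and 3154 in TPI. Its level was thus lower in tolerized than naive cells by -1.19 (standard error 0.20, adjusted p = 0.000296) after Ag and by -0.94 (standard error 0.18, adjusted p = 0.00078) after PI. The PI responses were 2.77 in naive and 2.06 in tolerized cells. Their difference of -0.72 (standard error 0.26, adjusted p = 0.0694) did not pass, although it passed without T0 replicate 3. The ratio of *Rgs16* to *Rgs2*, in normalized counts per kb of exon, was 0.232 ± 0.0786 (SD, n = 3) in NAg and 9.47 ± 1.28 in TAg. It was 0.270 ± 0.0567 in NPI and 2.60 ± 0.409 in TPI, and 0.0534 ± 0.0457 in N0 and 0.161 ± 0.0776 in T0.

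*Rgs3*, which encodes a regulator of inhibitory and Gq-type α subunits, fell after Ag in both cell states, and less so in tolerized cells. It had 1733, 1422 and 1497 in N0 and 1866, 1882 and 1832 in T0. After Ag the normalized counts were 356, 356 and 392 in NAg, the lowest group, and 1300.1, 1342 and 1076 in TAg. The fall was -2.13 (standard error 0.09, adjusted p = 4.45e-16) in naive and -0.61 (standard error 0.08, adjusted p = 6.87e-07) in tolerized cells, and the responses differed by 1.52 (standard error 0.12, adjusted p = 5.96e-09). Of the 6 T cell markers 6 also fell after Ag in naive and 5 in tolerized cells, and the part of this in the values was not tested. With PI the NPI libraries, at 1631, 1798 and 1794, overlapped N0, whereas TPI reached 3833, 3828 and 3989.9. Tolerized cells passed the test of a PI response and naive cells did not, at 1.04 (standard error 0.08, adjusted p = 6.16e-11) against 0.12 (standard error 0.08, adjusted p = 0.221) in naive cells, and the difference itself was 0.92 (standard error 0.11, adjusted p = 3.13e-06). Without N0 replicate 1 the PI response of naive cells also passed, at 0.21 (adjusted p = 0.0373). *Rgs3* was higher in tolerized than naive cells by 1.77 (standard error 0.09, adjusted p = 9.35e-13) after Ag and 1.17 (standard error 0.08, adjusted p = 1.83e-10) after PI. The gap at rest of 0.24 (standard error 0.08, adjusted p = 0.0327) was small, and was lost without N0 replicate 2 or 3 or T0 replicate 1 or 2.

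*Rgs1*, a strong inhibitor of lymphocyte migration toward chemokines, was higher in tolerized cells under each condition, and no difference in its responses was detected. Its normalized counts were 757, 635 and 697 in N0 and 1053, 1423 and 1206 in T0. They were 1921, 1421 and 1597 in NAg and 3259, 2855 and 2825 in TAg. After PI they were 4661, 5726 and 5040.4 in NPI and 7835, 8274 and 7438 in TPI. No tolerized group overlapped the naive group of the same condition, and the gaps were 0.80 (standard error 0.12, adjusted p = 0.000163) at rest, 0.87 (standard error 0.12, adjusted p = 1.28e-05) after Ag and 0.62 (standard error 0.11, adjusted p = 0.000299) after PI. The Ag responses were 1.19 in naive and 1.26 in tolerized cells, and their difference of 0.07 (standard error 0.17, adjusted p = 0.829) changed sign with the library scaling (−0.01 with DESeq2's size factors). The PI responses of 2.83 and 2.65 differed by -0.18 (standard error 0.17, adjusted p = 0.507).

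*Rgs10*, a small RGS protein acting on inhibitory α subunits, fell with Ag in both cell states, to overlapping levels. From 702, 521 and 651 in N0 and 513, 548 and 651 in T0 it dropped to 163, 125 and 126 in NAg and 163, 139 and 141 in TAg. The responses were -2.24 (standard error 0.13, adjusted p = 1.66e-13) and -1.97 (standard error 0.13, adjusted p = 2.14e-12), and the difference of 0.27 (standard error 0.18, adjusted p = 0.331) did not pass. The fall of *Rgs10* in naive cells stands beside a median of -1.09 over the T cell markers, and in tolerized cells beside -0.61. With PI it rose instead, to 1056, 931 and 1049 in NPI and 753, 834 and 820.3 in TPI. Those rises were 0.65 (standard error 0.11, adjusted p = 2.12e-05) in naive and 0.47 (standard error 0.11, adjusted p = 0.000692) in tolerized cells. The gap between the cell states passed after PI, TPI being lower by -0.33 (standard error 0.11, adjusted p = 0.0203), and this call was lost without NPI replicate 1 or 3 or TPI replicate 1. It did not pass at rest (-0.15, standard error 0.11, adjusted p = 0.372) or after Ag (0.12, standard error 0.14, adjusted p = 0.544).

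The members did not all move in the same direction with Ag and PI. In naive cells after Ag, 6 of the 9 were higher and 2 lower than at rest, where 65.4% of all tested genes passed, 30.8% higher and 34.6% lower. In tolerized cells after Ag, 6 were higher and 3 lower, against a background of 59.8% (29.4% higher and 30.4% lower). After PI, 8 of 9 were higher in naive cells (61.7% of all genes passed) and 9 of 9 in tolerized cells (68.3%), with 0 lower in either. Higher calls made up 27.3% of all tested genes in naive and 31.3% in tolerized cells with PI, and lower calls 34.4% and 37.0%. *Rgs3* and *Rgs10* were the members that fell with Ag in both cell states and did not fall with PI.

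**Figure D2:**
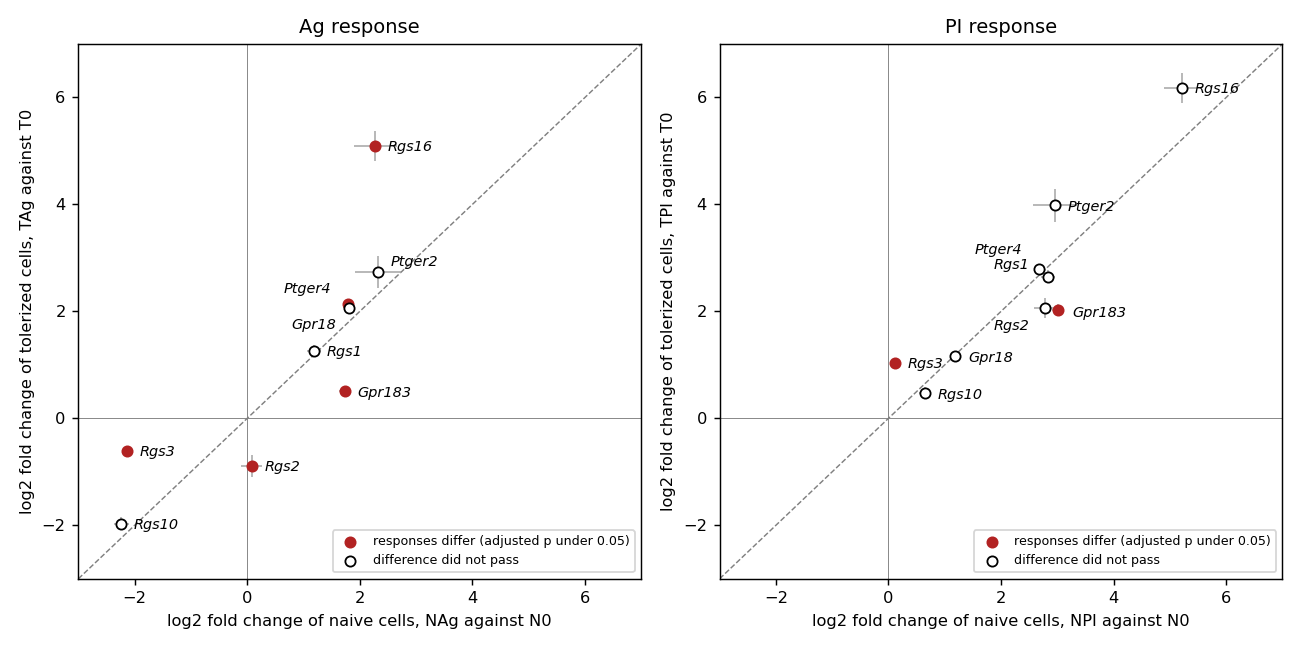
Log2 fold change of tolerized against that of naive cells for Ag (left) and PI (right), with bars of 1 standard error and a dashed line where both would be equal. Filled points are genes whose responses differed, 5 of 9 with Ag and 2 of 9 with PI, against 22.9% and 20.3% of all tested genes. *Rgs16* lies furthest above the line with Ag and *Gpr183* below it with both.

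Among the receptors, *Gpr183* rose less in tolerized cells. At rest its normalized counts were 1259, 1384 and 1421 in N0 and 1414, 1397 and 1940.2 in T0, which overlapped. After Ag they were 4778, 4596 and 4715 in NAg and 2233, 2040.0 and 2567 in TAg, so every NAg library was above every TAg library. PI took them to 11007, 11268 and 11776 in NPI and 7027, 6436 and 6243 in TPI. Per kb of exon, *Gpr183* was the most abundant member in each naive group and in T0. The response to Ag was 1.74 (standard error 0.10, adjusted p = 6.96e-13) in naive and 0.51 (standard error 0.10, adjusted p = 0.000129) in tolerized cells, a difference of -1.23 (standard error 0.14, adjusted p = 1.74e-06). The response to PI was 3.02 and 2.03, a difference of -0.99 (standard error 0.14, adjusted p = 2.1e-05). *Gpr183* was lower in tolerized than naive cells by -1.03 (standard error 0.10, adjusted p = 5.78e-08) after Ag and -0.78 (standard error 0.10, adjusted p = 1.41e-06) after PI, while the gap at rest did not pass (0.21, standard error 0.10, adjusted p = 0.148).

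*Gpr18*, next to *Gpr183* on the chromosome, rose with Ag in both cell states, and no difference between TAg and NAg was detected. Its normalized counts were 552, 528 and 529.5 in N0 and 442, 445 and 517 in T0. They reached 1878, 1964 and 2018 in NAg and 1905, 1936 and 2133 in TAg, which overlapped. The lower levels after PI were 1203, 1274 and 1321 in NPI and 1210.2, 956 and 1017 in TPI, so *Gpr18* was the one member with its highest levels after Ag in both cell states. The log2 fold changes with Ag were 1.81 (standard error 0.08, adjusted p = 1.91e-15) and 2.07 (standard error 0.08, adjusted p = 3.34e-16), and with PI 1.19 and 1.16. The gap between TAg and NAg was 0.04 (standard error 0.08, adjusted p = 0.693), with a sign that changed with the library scaling (−0.01 with DESeq2's size factors). TPI was lower than NPI by -0.25 (standard error 0.08, adjusted p = 0.0154), a call made although the replicates overlapped, and lost without NPI replicate 3 or TPI replicate 2 or 3. Over the 18 libraries the pair of neighbors had a Pearson r of 0.539 on the log2 scale, a value that reflects mostly the 6 groups.

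*Ptger2*, for EP2, was the member with the largest gap between the cell states at rest and after PI. In N0 its normalized counts were 63.4, 26.1 and 57.5, and in T0 they were 242, 252 and 535. Replicate 3 of T0 stood apart, above the other T0 libraries by more than a factor of 2, and it was the T0 library with few Y-linked reads. After Ag the values were 351, 251 and 173 in NAg and 2154, 2607 and 2207 in TAg. With PI they were 382, 417 and 399 in NPI and 6123, 4996 and 5367 in TPI. No naive library reached the lowest TAg or TPI library, and the NAg and T0 libraries overlapped. *Ptger2* was higher in tolerized than naive cells by 2.77 (standard error 0.40, adjusted p = 0.000341) at rest, 3.19 (standard error 0.31, adjusted p = 4.37e-06) after Ag and 3.79 (standard error 0.31, adjusted p = 5.93e-07) after PI. Both cell states also responded, to Ag by 2.33 (standard error 0.41, adjusted p = 0.000209) in naive and 2.74 (standard error 0.30, adjusted p = 2.58e-06) in tolerized cells and to PI by 2.96 and 3.98. No difference between the responses passed, at 0.42 (standard error 0.53, adjusted p = 0.647) for Ag and 1.02 (standard error 0.52, adjusted p = 0.208) for PI. The PI difference passed without T0 replicate 3, at 1.49.

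*Ptger4*, for EP4, rose with each stimulus in both cell states and differed little between them. Its normalized counts were 657, 607 and 636 in N0 and 657, 785 and 797 in T0. Following Ag they were 2391, 2167 and 2292 in NAg and 3249.8, 3558 and 3208 in TAg. Following PI they were 4147, 4242 and 4238 in NPI and 5964, 4926 and 4932 in TPI. After each stimulus the cell states did not overlap, tolerized cells being higher by 0.56 (standard error 0.08, adjusted p = 5.52e-06) after Ag and 0.33 (standard error 0.08, adjusted p = 0.00144) after PI. The gap after Ag stands beside a median of 0.52 over the T cell markers, and the part of this in it was not tested. At rest the gap of 0.22 (standard error 0.08, adjusted p = 0.063) did not pass, although it did with DESeq2 (adjusted p = 0.0332). The responses to Ag were 1.80 in naive and 2.14 in tolerized cells, and their difference of 0.34 (standard error 0.12, adjusted p = 0.033) was lost with DESeq2 (0.27, adjusted p = 0.0922) and in 6 of 12 fits that each left out 1 library.

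The balance of the prostaglandin E2 receptors differed between the cell states. In normalized counts per kb of exon, *Ptger2* was 0.138 ± 0.0529 (SD, n = 3) of *Ptger4* in N0, 0.203 ± 0.0647 in NAg and 0.171 ± 0.00568 in NPI. In tolerized cells it was 0.819 ± 0.343 in T0, 1.25 ± 0.0640 in TAg and 1.88 ± 0.0714 in TPI. *Ptger2* exceeded *Ptger4* per kb in all 6 stimulated tolerized libraries and in 1 T0 library, and in 0 of the 9 naive libraries. Since the ratio is taken within a library, it does not depend on how libraries were scaled, but it does rest on the exon lengths of the annotation.

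**Figure D3:**
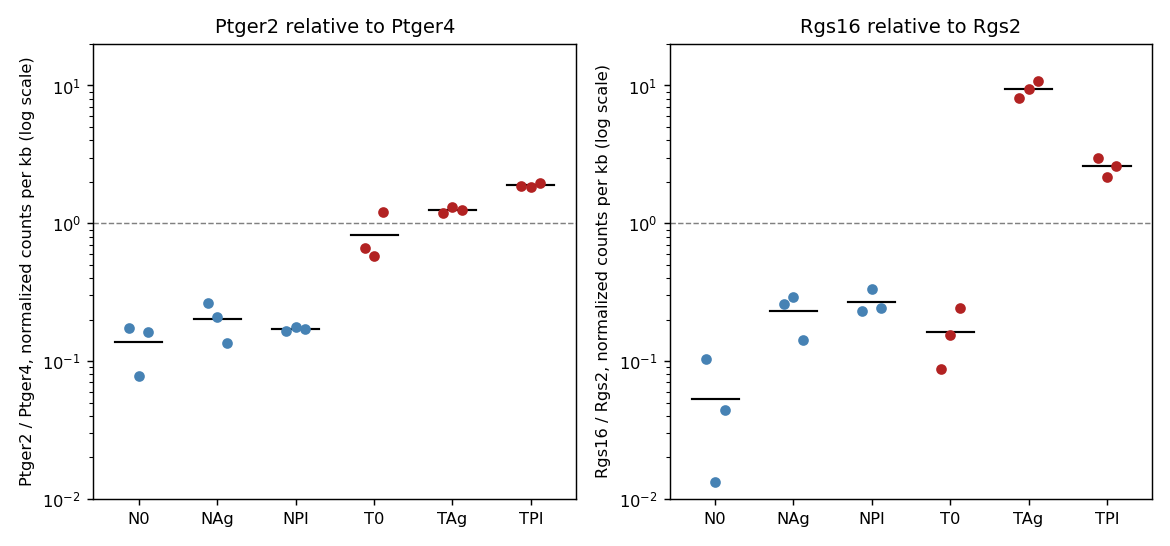
Ratio of *Ptger2* to *Ptger4* (left) and of *Rgs16* to *Rgs2* (right) in normalized counts per kb, on a log axis, with 1 point per library, a line at the mean of 3 and a dashed line at 1. The TAg and TPI libraries lie above 1 in both plots and all naive libraries below it.

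*Rgs1*, *Rgs3*, *Rgs16* and *Ptger2* were higher in tolerized than naive cells under each condition. They were the 4 of 9 members that passed at rest, where 22.5% of all tested genes passed, 8.22% higher and 14.2% lower. After Ag 7 passed, 5 higher and 2 lower, against 39.6% of all genes (21.8% higher and 17.8% lower). After PI 9 passed, 5 higher and 4 lower, against 37.9% (18.5% higher and 19.4% lower). With a 2-fold limit and a mean above 50 as well, 2 members passed at rest, 5 after Ag and 3 after PI, as did 3.22%, 5.71% and 5.61% of all tested genes. Naive and tolerized replicates were fully separated for 6 members at rest, 7 after Ag and 8 after PI, and for 35.0%, 47.7% and 50.5% of all tested genes. Responses to Ag differed for 5 of 9 members, 3 with a higher and 2 with a lower value in tolerized cells, where 22.9% of all genes passed (16.3% higher and 6.54% lower). Responses to PI differed for 2, *Rgs3* being higher and *Gpr183* lower, against 20.3% (13.7% and 6.68%). With a 2-fold limit these were 3 and 0 members, against 6.71% and 4.05% of all genes.

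With scores of the neutrophil and erythroid markers as covariates, 0 members passed at rest, 3 after Ag (*Rgs3*, *Rgs16* and *Gpr183*) and 4 after PI (the same with *Ptger2*). The neutrophil sums of naive and tolerized libraries did not overlap under any condition. That score and the cell state can thus hardly be told apart in this fit, and a lost call does not separate them. The log2 fold changes of *Rgs16* were then 0.83 at rest, 3.75 after Ag and 2.03 after PI, and those of *Ptger2* 2.49 (adjusted p = 0.711), 2.88 (adjusted p = 0.136) and 3.78 (adjusted p = 0.00157). *Rgs2* had log2 fold changes of -0.91 after Ag (adjusted p = 0.389) and -0.92 after PI (adjusted p = 0.0801) in that fit. With a Y-linked score as covariate, 2 calls were lost, those of *Rgs16* at rest (1.35, adjusted p = 0.0978) and of the difference in Ag response of *Ptger4* (0.31, adjusted p = 0.0539). The gap of *Ptger2* at rest was then 3.10 (adjusted p = 0.000216).

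**Figure D4:**
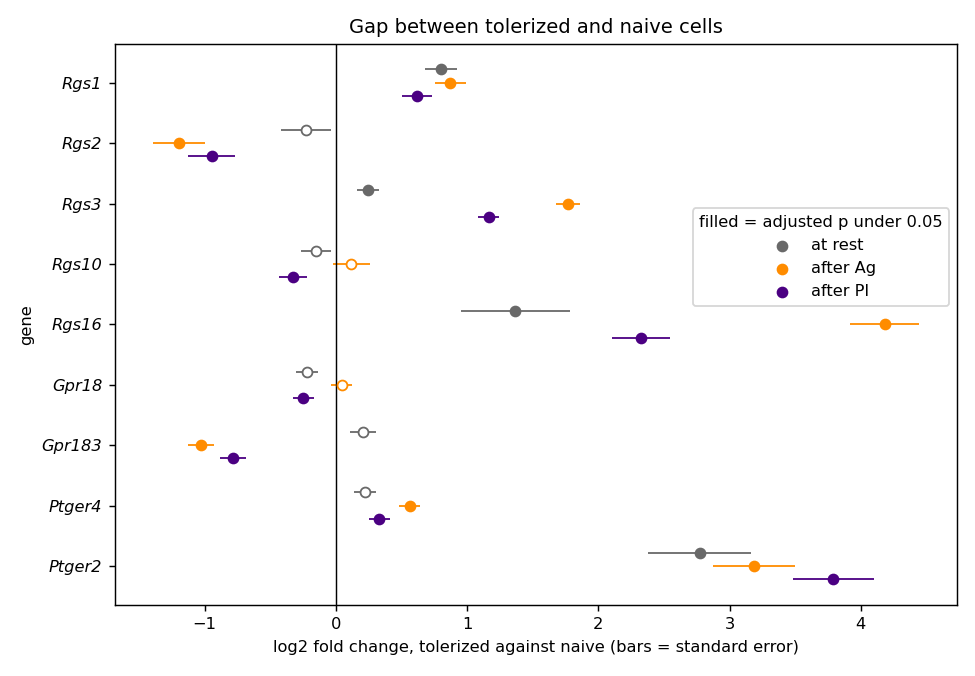
Log2 fold change of tolerized against naive cells for each gene at rest, after Ag and after PI, with bars of 1 standard error and filled points where the adjusted p was under 0.05. *Rgs16* and *Ptger2* have the largest gaps, while *Rgs2* and *Gpr183* have filled points below 0 after Ag and PI, and an open point at rest.

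The other genes of the pathway were taken from 9 lists with 124 genes, of which 99 were tested. They were chosen by function and not by how they moved, though with results of these data known. After Ag, 32 of the 99 were higher and 16 lower in tolerized than naive cells, where 21.8% and 17.8% of all tested genes were. The median log2 fold change was 0.24 against 0.03 over all tested genes. After PI, 22 were higher and 20 lower (18.5% and 19.4% of all tested genes, median 0.05 against −0.03). At rest, 13 were higher and 11 lower (8.22% and 14.2%, median 0.05 against −0.10). Ag itself raised 27 and lowered 41 in naive cells (30.8% and 34.6% of all tested genes). It raised 19 and lowered 41 in tolerized cells (29.4% and 30.4%). PI raised 28 and lowered 37 in naive cells (27.3% and 34.4%), and raised 29 and lowered 46 in tolerized cells (31.3% and 37.0%). The Ag response was higher in tolerized than naive cells for 24 of these genes and lower for 7 (16.3% and 6.54%). The PI response was higher for 13 and lower for 10 (13.7% and 6.68%). These shares of all tested genes also stand beside the counts of each list below.

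Of 16 other RGS genes 7 were tested, the others being below the count limit in each group. *Rgs14*, which joins an RGS domain to a binding site for inactive inhibitory α subunits, had 1565 ± 35.9 normalized counts in N0 and 43.7 ± 10.1 in NAg, a fall of -5.21 (standard error 0.19, adjusted p = 2.08e-14). In tolerized cells it went from 1208 ± 131 to 131 ± 36.4, so it was higher in TAg than NAg by 1.58 (standard error 0.22, adjusted p = 1.93e-05), but lower in TPI than NPI by -1.17 (standard error 0.14, adjusted p = 4.17e-06). *Rgs11* was lower in tolerized cells under each condition, by -0.87 at rest, -0.85 after Ag and -1.19 after PI. In this list 2 genes were higher and 2 lower after Ag, and 0 higher and 2 lower after PI.

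The G proteins moved both ways. Of 11 tested α subunits, 4 were higher and 1 lower in TAg than NAg. *Gnaq*, for the Gq α subunit, had 287 ± 84.9 in NAg and 974 ± 44.9 in TAg, a gap of 1.78 (standard error 0.15, adjusted p = 1.74e-08), and was also higher in tolerized cells at rest (0.68) and after PI (1.05). *Gnai2*, for the main inhibitory α subunit of lymphocytes, fell with Ag by -2.03 (standard error 0.09, adjusted p = 2.25e-15) in naive cells and was higher in TAg than NAg by 0.82. The latter value stands beside a median of 0.52 over the T cell markers. Of 10 β and γ subunits, 3 were higher and 4 lower after Ag, *Gnb4* being higher by 0.95 (standard error 0.22, adjusted p = 0.00121). Among 8 receptor kinases and arrestins, 6 were lower with Ag in naive and 7 in tolerized cells, and 4 were higher and 1 lower in TAg than NAg. *Arrb2*, for β-arrestin 2, had 209 ± 22.2 in NAg and 439 ± 32.3 in TAg (1.08 (standard error 0.10, adjusted p = 8.26e-09)).

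In the cyclic AMP pathway, 7 of 14 tested genes were higher and 2 lower in TAg than NAg. *Adcy7*, an adenylyl cyclase of lymphoid cells, fell from 7737 ± 715 in N0 to 544 ± 91.3 in NAg and was higher in TAg by 1.01 (standard error 0.11, adjusted p = 2.43e-07). *Crem*, which encodes cyclic AMP-responsive transcription factors, rose with Ag to 3042 ± 426 in NAg and to 614 ± 46.8 in TAg, lower by -2.29 (standard error 0.15, adjusted p = 5.95e-09), but was higher in TPI than NPI by 0.40 (standard error 0.13, adjusted p = 0.0287). After PI, 3 of the list were higher and 5 lower, *Adcy6* being lower by -1.99 (standard error 0.13, adjusted p = 6.63e-10).

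Of 5 other prostanoid receptors tested, 1 was higher and 0 lower after Ag, and 0 higher and 2 lower after PI. *Tbxa2r*, the thromboxane receptor, fell with Ag by -5.87 in naive and -5.06 in tolerized cells, and *Ptgir*, the prostacyclin receptor, was lower in tolerized cells by -2.23 (standard error 0.27, adjusted p = 4.58e-06) at rest and -2.46 (standard error 0.29, adjusted p = 4.48e-07) after PI. Both of these receptors fell with Ag in both cell states, *Ptgir* by -4.08 in naive and -1.70 in tolerized cells, where *Ptger2* and *Ptger4* rose. Of 6 tested genes for making and clearing prostaglandin E2, 1 was higher after Ag and 2 higher and 1 lower after PI. *Ptgs2*, the inducible cyclooxygenase, had 936 ± 156 in NPI and 737 ± 137 in TPI, from 24.1 ± 19.1 and 45.7 ± 29.5 at rest. The enzymes of the oxysterol ligands of *Gpr183* were scarce, 1 of 4 being lower after Ag. That gene, *Ch25h*, had at most 9 reads in any library, and its values are not interpreted.

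Of 34 other G-protein-coupled receptors tested, 10 were higher and 5 lower in TAg than NAg, and 9 higher and 5 lower in TPI than NPI. *Adora2a*, an adenosine receptor that also raises cyclic AMP, had 1525 ± 109 in NPI and 7262 ± 573 in TPI, a gap of 2.26 (standard error 0.15, adjusted p = 2.09e-08). *S1pr1*, which guides exit from lymphoid organs, fell with Ag by -4.16 in naive and -2.91 in tolerized cells and was lower in TPI than NPI by -1.57 (standard error 0.11, adjusted p = 1.69e-09). *Gpr65*, a proton-sensing receptor, rose with Ag to 3021 ± 157 in NAg and 1161 ± 210.2 in TAg, and its Ag response was smaller in tolerized cells by a difference of -1.74 (standard error 0.14, adjusted p = 9.03e-09).

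**Figure D5:**
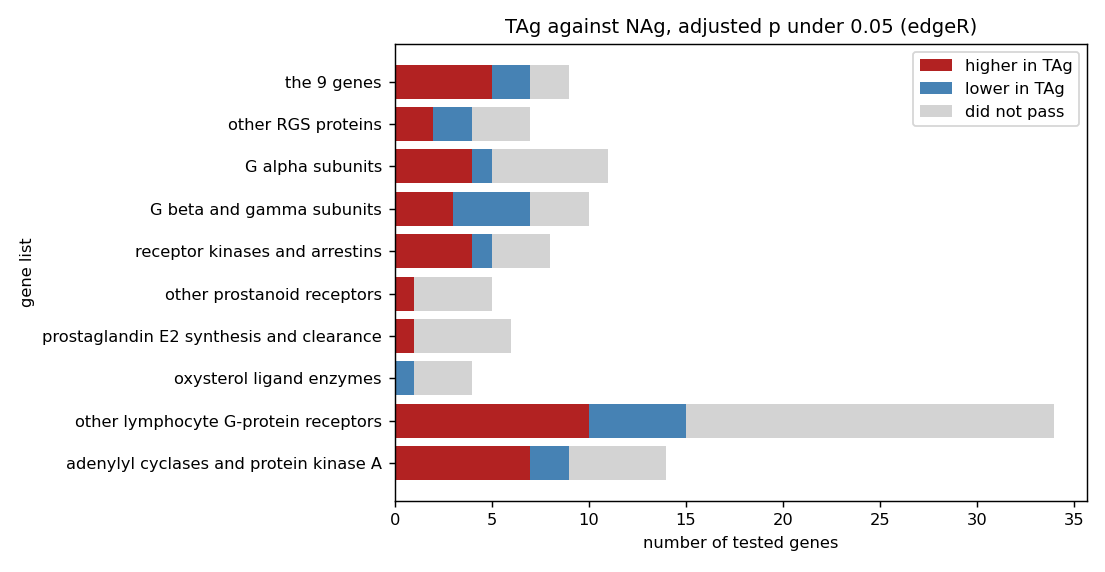
Number of tested genes that were higher, lower or did not pass in TAg against NAg, for the 9 genes and for 9 lists of other G-protein signaling genes. Of the 9 genes 5 were higher and 2 lower, and of the other lymphocyte receptors 10 and 5 of 34. Of all tested genes, 21.8% were higher and 17.8% lower.

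The genes whose log2 normalized counts over the 18 libraries were most like those of a member were found among 10342 genes with a mean of at least 50. *Ptger2* was closest to *Ccdc50* (Pearson r 0.985), followed by *Il10* (0.975), an anti-inflammatory cytokine gene, and *Perp* (0.975). *Rgs16* was closest to *Nfil3* (0.984), a transcription factor gene, then *Itgb8* (0.973) and *Zbtb32* (0.972). The nearest genes of *Ptger4* were *Errfi1* (0.993), *Ccl4* (0.992) and *Egr2* (0.985), and those of *Rgs1* were *Casz1* (0.989), *Med7* (0.989) and *Slco4a1* (0.984). *Gpr183* was closest to *Zfp622* (0.986), *Gpr18* to *Impdh2* (0.991), *Rgs2* to *Lrpap1* (0.980), *Rgs3* to *Cdc14a* (0.977) and *Rgs10* to *Plcg1* (0.989). Among the members, *Rgs1* and *Rgs16* (0.938), *Rgs1* and *Ptger4* (0.937) and *Rgs16* and *Ptger2* (0.928) were most alike, and *Rgs10* and *Gpr18* most unlike (−0.622). These coefficients describe 18 libraries that share 6 treatments and carry no test.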

How the data were processed

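The authors aligned paired-end reads of ribosomal RNA-depleted RNA to mm9 with TopHat2 2.1.1 and assigned them to Ensembl genes with HTSeq-count 0.9.1, per the labels and the methods of the study. The mode for strand and overlapping genes is not given in the sources used here. The deposited values are raw counts per gene, with no normalization and no pooling. Gene symbols and exons (NCBIM37) were matched by identifier for 37205 of 37991 genes.

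Counts were analyzed with R 4.3.3 and edgeR 4.0.16. TMM scaling, a mean per group over all 18 libraries and robust quasi-likelihood F tests were used on 17240 genes with a mean normalized count of at least 3 in 1 group, with Benjamini-Hochberg adjustment and a threshold of 0.05. Differences in response were tested as interaction contrasts. The standard error is the log2 fold change divided by the square root of F. Alternatives were DESeq2 1.42.0, both tests together, DESeq2's size factors, no filter, a 2-fold limit with a mean above 50, only the groups compared, a replicate block, covariates for Y-linked and for other cells' marker genes, and each library left out. Scripts were tested on simulated data.

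The members, lists and tests were chosen with earlier results of these data known, and the motifs after values had been seen. Besides members, up to 3 passing genes of each list with the largest change in a comparison are named, and the 3 genes most like each member by Pearson r of log2(normalized count + 1). No 2 replicates had counts that agreed within sampling noise.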

Additional observations from a re-analysis of the deposited data

Results flagged for a closer look

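The responses of the 2 cell states to Ag differed by an interaction test in edgeR for 5 of the 9 genes, and for 22.9% of all tested genes. The response was stronger in tolerized than naive cells for *Rgs16* by 2.81 on the log2 scale and for *Ptger4* by 0.34. For *Rgs3* the difference was 1.52, where the fall was smaller in tolerized cells. *Rgs2* had a difference of -0.97 and *Gpr183* one of -1.23. The responses to PI differed for *Rgs3*, by 0.92, and for *Gpr183*, by -0.99, which made 2 of 9 against 20.3% of all tested genes. Adjusted p-values from edgeR ranged from 5.96e-09 for *Rgs3* to 0.033 for *Ptger4*, both with Ag. The call of *Ptger4* was lost under 7 of 8 alternative fits of that value and in 6 of 12 fits that each left out 1 library. That of *Rgs2* was lost with either pair of marker scores as covariates and without T0 replicate 1 or TAg replicate 2. The causes of these differences were not tested.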

How the results depend on the processing

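The number of members past the threshold moved by over 1.5 times in the following cases. With a 2-fold limit and a mean above 50 it was 2 at rest, 3 after PI, 3 for the difference in Ag response and 0 for that in PI response. With neutrophil and erythroid scores as covariates, of which the first can hardly be told apart from the cell state, it was 0 at rest, 3 after Ag, 4 after PI and 3 for the difference in Ag response. With B cell and macrophage scores it was 3 for the difference in Ag response. With single libraries left out, it ranged from 2 to 4 at rest (lowest without N0 replicate 2 or 3 or T0 replicate 2), from 3 to 6 for the difference in Ag response (lowest without T0 replicate 1 or TAg replicate 2, highest without T0 replicate 3) and from 2 to 4 for that in PI response (highest without T0 replicate 3). The cause was not tested. Values that did not pass changed sign as follows. The gap of *Gpr18* after Ag was -0.0078 with DESeq2 and with DESeq2's size factors, -0.0836 with neutrophil and erythroid scores and -0.0047 with B cell and macrophage scores, and ranged from -0.0071 to 0.0758 with libraries left out. The difference in Ag response of *Rgs1* was -0.0063 with DESeq2 and -0.0062 with its size factors, and ranged from -0.031 to 0.1948 with libraries left out. With neutrophil and erythroid scores the gap at rest was 0.0162 for *Rgs2* and -0.0372 for *Rgs3*, which had passed, and the difference in PI response was 0.0264 for *Rgs1* and 0.0567 for *Gpr18*. With B cell and macrophage scores the PI response of *Rgs3* in naive cells was -0.0042. With libraries left out, the Ag response of *Rgs2* in naive cells ranged from -0.0507 to 0.2024 and the difference in PI response of *Gpr18* from -0.1267 to 0.047. A replicate block kept all 81 log2 fold changes on their side of the threshold, *Ptger4* having a difference in Ag response of 0.34 under the block. No pairing of the samples by replicate number was detected, since in no comparison was the correlation of deviations over 0.1 for every number. A weak or partial pairing could be missed by this check.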
